A study of Saccharomyces cerevisiae with 73 samples.

Results

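The respiratory chain and ATP synthase subunits described here are 39 nuclear genes of budding yeast, chosen by name. They are SDH1 to SDH4 of complex II, 9 genes of complex III, CYC1 and CYC7 for cytochrome c, 9 genes of complex IV, 12 genes of complex V, and the NADH dehydrogenases NDI1, NDE1 and NDE2. A probe was found for 38 of the 39, out of 5538 genes with a probe, and ATP18 was not analysed here.

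Baker's yeast passes electrons from succinate (complex II) or from NADH (single-subunit dehydrogenases on either face of the inner mitochondrial membrane, in place of a complex I) to ubiquinone. Complex III hands them on to cytochrome c, complex IV passes them to oxygen, and the ATP synthase, complex V, uses the proton gradient this builds. Dextrose represses most of these genes, which the activator complex of HAP2, HAP3, HAP4 and HAP5 switches on when the cells must respire, as on ethanol. COX5A and COX5B, and CYC1 and CYC7, are pairs of copies known from laboratory cultures as aerobic (COX5A, CYC1) and hypoxic (COX5B, CYC7) forms.

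The cells were of strain KCN118, an S288C strain carrying ade2, of mating type alpha, and all groups share that genotype. They grew in dextrose medium with all amino acids and inositol, were filtered and washed, and were moved to 1 of 13 media. Each medium was 1 culture, taken 15, 30, 60, 120 and 240 min after the shift, and each two-colour array set mRNA of the shifted cells (Cy5) against mRNA from t = 0 (Cy3). There were 73 arrays for 65 combinations of culture and time, and the 8 repeat arrays were averaged with their partners. Of these, 2 (SD+ino at 240 min and Sgal+ino at 60 min) were nearly identical to their partners (r = 0.9999 over genes, against 0.71 to 0.99 for the other 6). Their titles carry the same technical repeat number as their partners and the unexplained note ojgrid, while the other 6 are titled as second technical repeats. Whether the 2 are second readings of the same array was not tested, and each pair counted as 1 value either way. The 4 ethanol media were SEtOH, SEtOH+aa, SEtOH+ino and SEtOH+aa+ino, and the 4 galactose media were Sgal, Sgal+aa, Sgal+ino and Sgal+aa+ino, where aa stands for all amino acids and ino for inositol. The 5 dextrose media were SD, SD+ino, SD+aa, SD+aa:LIVWHM+ino and SD+aa:ARNCQGKPSDEFTY+ino, the last 2 with only the amino acids given in letter code.

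All values below are log2 ratios to t = 0, so 1.00 is a doubling, and they rest on deposited values taken to be log10 of shifted over unshifted cells. Neither the log base nor the direction is given in the sources used here. If the base were 2, every log2 value would be 3.32 times smaller. The calls of the tests would stay the same, but the counts at 2-fold or more would change. If the ratio ran the other way every sign would turn. GAL1, the galactokinase that cells induce on galactose, was at 2.42, 2.09, 1.63 and 1.49 at 240 min in the galactose cultures, at 0.94 to 1.31 in the ethanol cultures and at -0.40 to 0.08 in the dextrose cultures. With the ratio the other way, GAL1 would be lowest in the galactose cultures. As read here, the galactose values of GAL1 began just above the ethanol values at 240 min. At 120 min the 2 groups overlapped, at 1.17 to 1.91 in galactose and 0.97 to 1.43 in ethanol. Both limit these cultures as a model of growth on galactose. Arrays gave values for 4954 to 6254 probes each, 6220 at the median, and of 2774 member values 8 were missing and 1 was at the lower limit of the file. The values are ratios of polyA RNA of whole cultures, in which RNA per cell and a change in the makeup of the culture cannot be told apart.

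At 120 and 240 min, averaged, subunits of every complex were higher in ethanol than in dextrose. Complex II stood highest above t = 0 in ethanol, with a median over its 4 genes of 2.37 ± 0.08, followed by complex III at 1.77 ± 0.13, complex IV at 1.28 ± 0.07 and complex V at 1.20 ± 0.10 (SD over 4 cultures each). In galactose the medians were 1.65 ± 0.67 for complex II, 1.83 ± 0.54 for complex III, 1.52 ± 0.44 for complex IV and 1.14 ± 0.47 for complex V (SD, n = 4). In dextrose all 4 medians lay between 0.14 and 0.31. Complex II had the highest median of the 4 complexes in every ethanol culture, and complex III in 3 of the 4 galactose cultures, with complex II highest in Sgal+aa. As counts, 31 to 36 of the 38 subunits stood at 2-fold or more above t = 0 at 240 min in the ethanol cultures, 15 to 36 in the galactose cultures and 0 to 2 in the dextrose cultures. Of all genes, 17.6% to 20.9% did so in ethanol, 13.8% to 22.7% in galactose and 0.0181% to 3.14% in dextrose.

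**Figure D1:**
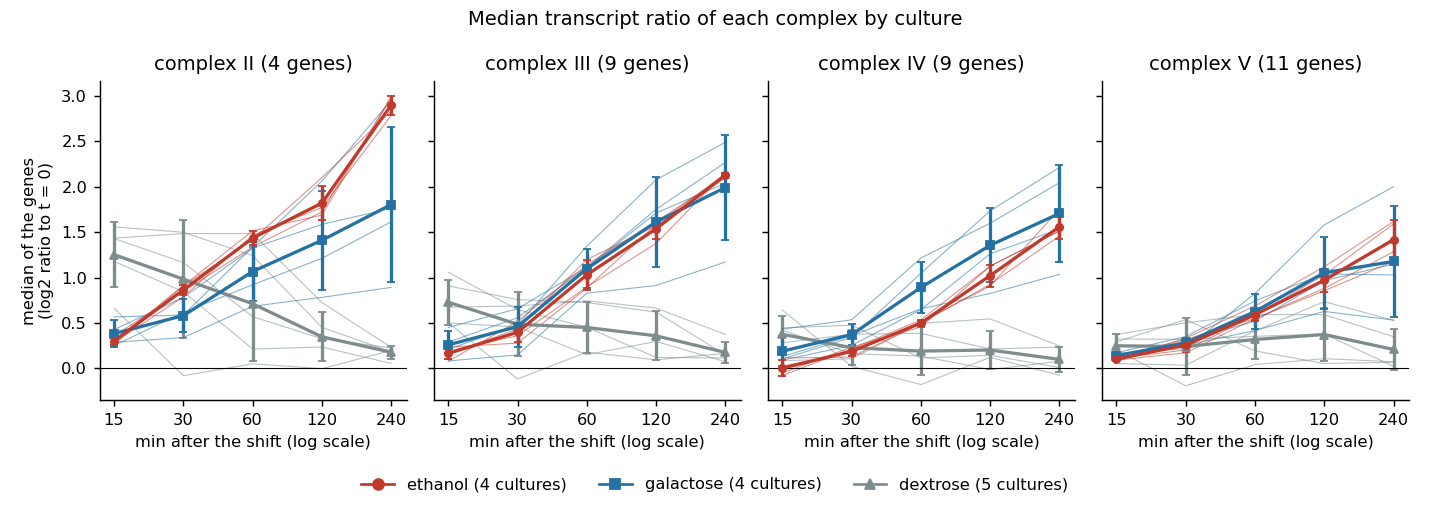
Median log2 ratio to t = 0 of complexes II, III, IV and V against minutes after the shift (log scale). Thin lines are single cultures and thick lines with bars the mean ± SD of the ethanol (4), galactose (4) and dextrose (5) cultures. Complex II averaged 2.90 at 240 min in ethanol, against 0.18 in dextrose, while at 15 min it averaged 0.30 in ethanol, against 1.25 in dextrose.

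In the limma fit over 11 cultures, which left out both media with part of the amino acids (additive effects of carbon, amino acids and inositol, adjusted over all genes by Benjamini and Hochberg, threshold 0.05), 29 of 38 subunits were higher in ethanol than in dextrose and 0 were lower. Of the 5332 genes tested, 26.4% were higher and 34.8% lower, 61.2% in all. The median difference was 1.16 over the subunits, and -0.12 over all genes. For galactose against dextrose 25 subunits were higher and 1, NDE1, was lower, with 27.6% of all genes higher and 36.3% lower (63.9% in all). The median difference was 0.97 over the subunits, and -0.14 over all genes. Both comparisons use the same dextrose cultures. Over all 13 cultures the 4 ethanol values lay above all 5 dextrose values for 33 of 38 subunits (28% of all genes), and the 4 galactose values did so for 23 (24.4% of all genes). The spread of values over genes was wider on the ethanol and galactose arrays at these times (mean SD per array of 1.20 and 1.37 in ethanol at 120 and 240 min, 1.27 and 1.41 in galactose, and 0.54 and 0.41 in dextrose). Quantile normalization, which gives every array the same spread, left 13 subunits higher and 1 lower in ethanol and 15 higher and 2 lower in galactose, and turned the sign of COR1, ATP7 and ATP15 in ethanol and of COR1, ATP14, ATP15 and ATP20 in galactose.

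**Figure D2:**
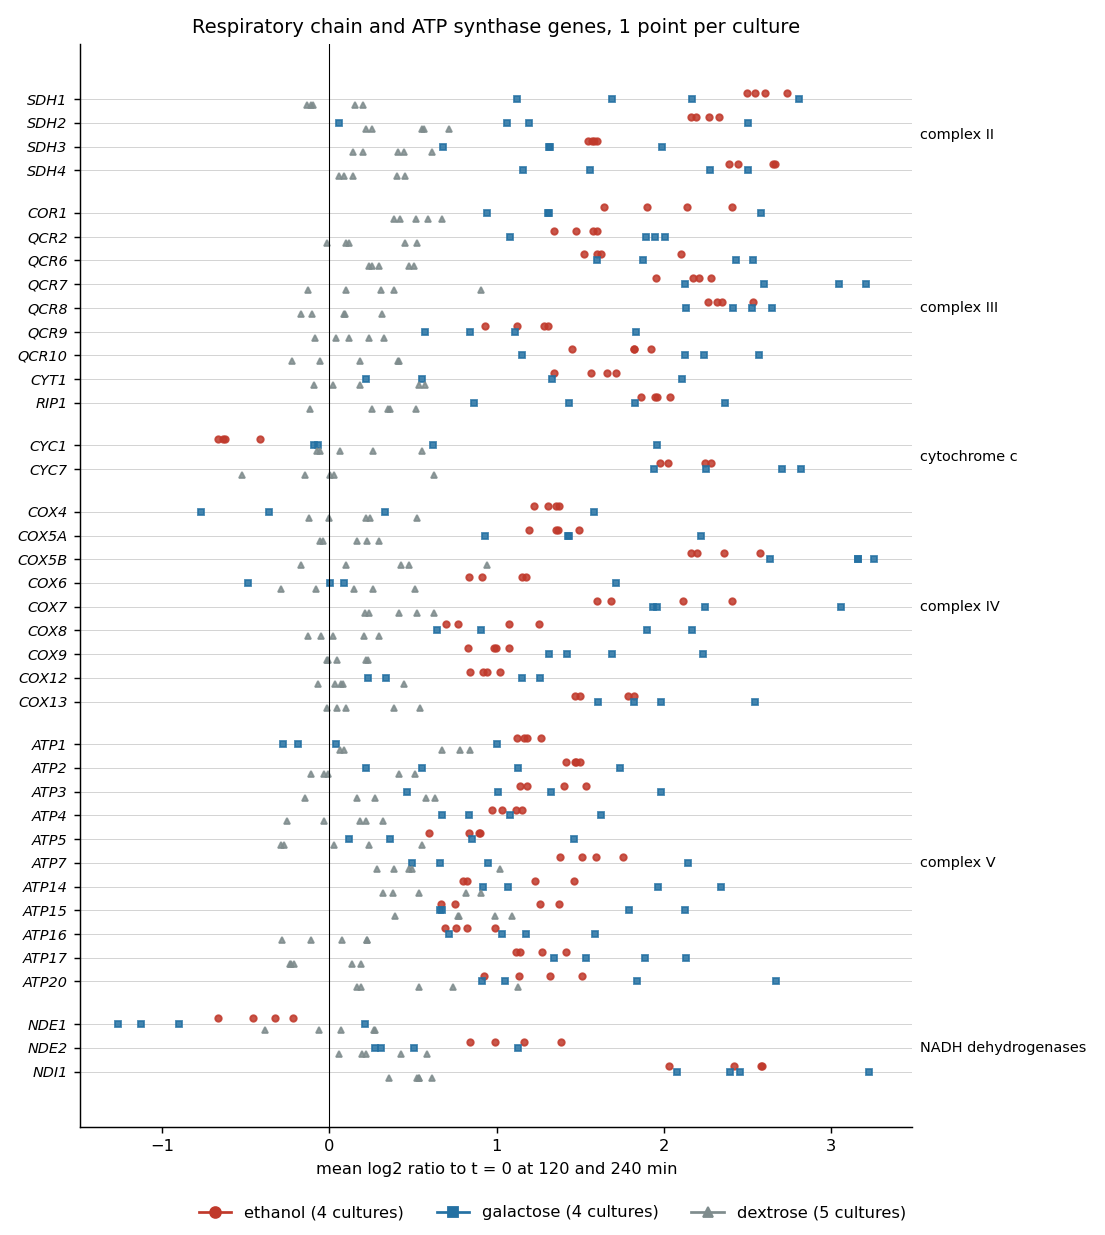
Mean log2 ratio to t = 0 over 120 and 240 min of each of the 38 subunits, in every culture, grouped by complex, with ethanol, galactose and dextrose cultures in different colours. CYC1 and NDE1 sit below 0 in all ethanol cultures, where the other 36 subunits sit between 0.59 and 2.74.

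Complex II, succinate dehydrogenase, links the citric acid cycle to the chain, and its 4 genes were all higher in ethanol than in dextrose (median difference 2.12), as were 3 of 4 in galactose (median 1.29). SDH1, the flavoprotein subunit, was at 2.55 in SEtOH, 2.50 in SEtOH+aa, 2.60 in SEtOH+ino and 2.74 in SEtOH+aa+ino. It was at 2.17, 2.81, 1.12 and 1.69 in Sgal, Sgal+aa, Sgal+ino and Sgal+aa+ino, and at 0.15, 0.20, -0.11, -0.10 and -0.14 in SD, SD+ino, SD+aa, SD+aa:LIVWHM+ino and SD+aa:ARNCQGKPSDEFTY+ino. The ethanol cultures lay within 0.24 of each other and the galactose cultures spread over 1.69, all above the dextrose cultures. The fitted difference was 2.54 ± 0.31 (SE, adjusted p = 0.000141, limma) for ethanol and 1.89 ± 0.31 (adjusted p = 0.000572, limma) for galactose.

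SDH4, a membrane anchor, was 2.31 ± 0.27 higher in ethanol than in dextrose (adjusted p = 0.000118, limma) and 1.65 ± 0.27 higher in galactose (adjusted p = 0.000602, limma). SDH3, the other anchor, had the smallest difference of the complex in ethanol, 1.19 ± 0.25 (adjusted p = 0.00246, limma), and its ethanol cultures averaged 1.58 ± 0.02, against 0.36 ± 0.19 in dextrose (SD, n = 4 and 5). SDH2, the iron-sulphur subunit, was at 1.19, 2.51, 0.06 and 1.06 in Sgal, Sgal+aa, Sgal+ino and Sgal+aa+ino, against 0.22 to 0.72 in dextrose. Sgal+ino lay below all 5 dextrose cultures and the other 3 galactose cultures above them. The difference of SDH2 in galactose was 0.89 ± 0.38 and did not pass (adjusted p = 0.0642, limma), while in ethanol it was 1.92 ± 0.38 (adjusted p = 0.00186). The difference between ethanol and galactose, 1.04 ± 0.35, did not pass either (adjusted p = 0.0705, limma).

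All 9 complex III genes were higher in ethanol than in dextrose (median difference 1.43) and 8 of 9 in galactose (median 1.53). QCR8, a small subunit at the ubiquinone side, was at 2.27 to 2.53 in the 4 ethanol cultures, at 2.13 to 2.65 in the galactose cultures and at -0.17 to 0.32 in the dextrose cultures. Neither group came near dextrose, and the differences were 2.25 ± 0.16 (adjusted p = 5.22e-06, limma) for ethanol and 2.32 ± 0.16 (adjusted p = 2.8e-06, limma) for galactose. QCR7, another small subunit, was at 2.60, 3.05, 2.13 and 3.21 in Sgal, Sgal+aa, Sgal+ino and Sgal+aa+ino, at 1.96 to 2.28 in ethanol and at -0.13 to 0.91 in dextrose. Its differences from dextrose were 1.79 ± 0.30 in ethanol (adjusted p = 0.000715) and 2.38 ± 0.30 in galactose (adjusted p = 0.000116, limma).

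QCR9 had the smallest difference of complex III in ethanol, 1.02 ± 0.25 (adjusted p = 0.00538, limma), and 0.94 ± 0.25 in galactose (adjusted p = 0.00737). CYT1, cytochrome c1, which gives electrons to cytochrome c, was at 1.35 to 1.72 in ethanol, and at 1.33, 2.11, 0.22 and 0.56 in Sgal, Sgal+aa, Sgal+ino and Sgal+aa+ino, against -0.09 to 0.57 in dextrose. The ethanol cultures stood clear of dextrose and 2 of the 4 galactose cultures did not. CYT1 was 1.24 ± 0.34 higher in ethanol (adjusted p = 0.00946, limma), and its galactose difference of 0.72 ± 0.34 did not pass (adjusted p = 0.0849). The other 5 genes, the core proteins COR1 and QCR2, the iron-sulphur protein RIP1, and QCR6 and QCR10, had differences of 1.29 to 1.62 in ethanol and 0.94 to 1.75 in galactose, and all passed, with COR1 of the opposite sign after quantile normalization.

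The 2 cytochrome c genes parted. CYC7, the minor isoform, was at 2.03, 2.25, 2.28 and 1.98 in SEtOH, SEtOH+aa, SEtOH+ino and SEtOH+aa+ino, and at 1.94 to 2.83 in galactose, against -0.52 to 0.62 in dextrose. Its differences were 2.14 ± 0.20 in ethanol (adjusted p = 3.03e-05, limma) and 2.43 ± 0.20 in galactose (adjusted p = 9.41e-06, limma). CYC1, the main isoform of aerobic cells, was at -0.62, -0.67, -0.64 and -0.41 in the same 4 ethanol media, at -0.09, -0.07, 0.62 and 1.96 in Sgal, Sgal+aa, Sgal+ino and Sgal+aa+ino, and at 0.06, -0.06, 0.26, 0.55 and -0.08 in SD, SD+ino, SD+aa, SD+aa:LIVWHM+ino and SD+aa:ARNCQGKPSDEFTY+ino.

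All 4 ethanol cultures were below t = 0 and below every dextrose culture in CYC1, and Sgal+aa+ino stood apart from the other galactose cultures. CYC1 was the sole subunit whose ethanol values all lay below dextrose (37.2% of all genes did). The difference of -0.84 ± 0.34 between ethanol and dextrose did not pass in the fit (adjusted p = 0.0572, limma), and neither did 0.36 ± 0.34 for galactose (adjusted p = 0.384). Between ethanol and galactose it passed, at -1.19 ± 0.31 (adjusted p = 0.033, limma). CYC1 was among the subunits that followed the others least: over the 65 combinations of culture and time its Pearson correlation with the median of the other subunits was -0.09, given as a description of values that share arrays.

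In complex IV, cytochrome c oxidase, 7 of 9 nuclear subunits were higher in ethanol than in dextrose (median difference 1.12) and 6 of 9 in galactose (median 1.27). COX7 was at 1.60 to 2.41 in ethanol and 1.94 to 3.06 in galactose, against 0.22 to 0.62 in dextrose. The differences of COX7 were 1.54 ± 0.21 in ethanol (adjusted p = 0.000282) and 1.89 ± 0.21 in galactose (adjusted p = 6.42e-05, limma). COX8 was at 0.70 to 1.26 in ethanol, above the -0.13 to 0.30 of dextrose, and yet its difference of 0.71 ± 0.29 did not pass (adjusted p = 0.0549, limma). In galactose COX8 was 1.16 ± 0.29 higher (adjusted p = 0.00565, limma). COX9 and COX13 passed in both comparisons, and COX12 passed in ethanol but not in galactose (0.55 ± 0.25, adjusted p = 0.0819, limma).

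COX4, a subunit needed for assembly, was at 1.22 to 1.37 in ethanol, and at 0.33, 1.58, -0.77 and -0.36 in Sgal, Sgal+aa, Sgal+ino and Sgal+aa+ino, against -0.12 to 0.52 in dextrose. The ethanol cultures were close together and the galactose cultures lay on both sides of the dextrose cultures. COX4 was 1.15 ± 0.40 higher in ethanol (adjusted p = 0.0289, limma), and its galactose difference was 0.03 ± 0.40 (adjusted p = 0.952), with a 95% interval of -0.85 to 0.92. COX6 showed the same scatter in galactose, at 0.09, 1.72, -0.49 and 0.01 in Sgal, Sgal+aa, Sgal+ino and Sgal+aa+ino, and did not pass in either comparison (0.79 ± 0.34 in ethanol, adjusted p = 0.0693, and 0.10 ± 0.34 in galactose, adjusted p = 0.809, limma).

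COX5A and COX5B, alternative forms of subunit V, were both higher. COX5B was at 2.58, 2.20, 2.36 and 2.17 in SEtOH, SEtOH+aa, SEtOH+ino and SEtOH+aa+ino, at 3.26, 3.16, 2.64 and 3.17 in Sgal, Sgal+aa, Sgal+ino and Sgal+aa+ino, and at -0.17 to 0.94 in dextrose. The 3 carbon sources did not overlap, with galactose highest. COX5B was 2.13 ± 0.21 higher in ethanol than in dextrose (adjusted p = 4.33e-05, limma), 2.86 ± 0.21 higher in galactose than in dextrose (adjusted p = 4.86e-06) and lower in ethanol than in galactose (-0.73 ± 0.19, adjusted p = 0.0327, limma). COX5A was at 1.19, 1.50, 1.36 and 1.37 in the ethanol cultures and at 1.43, 2.23, 0.93 and 1.43 in the galactose cultures, in the same order of media, against -0.06 to 0.30 in dextrose. Its differences were 1.12 ± 0.23 in ethanol (adjusted p = 0.00201) and 1.27 ± 0.23 in galactose (adjusted p = 0.000923, limma).

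In the ATP synthase 6 of 11 genes were higher in ethanol than in dextrose (median difference 0.72) and 6 of 11 in galactose (median 0.82). ATP17, of the membrane part, was at 1.12 to 1.42 in ethanol and 1.34 to 2.14 in galactose, against -0.24 to 0.19 in dextrose. It was 1.16 ± 0.20 higher in ethanol (adjusted p = 0.000897) and 1.65 ± 0.20 higher in galactose (adjusted p = 0.000101, limma). ATP16, the delta subunit of the central stalk, was 1.03 ± 0.20 higher in galactose (adjusted p = 0.00133) and 0.72 ± 0.20 higher in ethanol (adjusted p = 0.0097, limma).

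The 2 catalytic-head genes ATP1 (alpha) and ATP2 (beta) differed more by medium. ATP2 was at 1.42 to 1.50 in ethanol, and at 1.13, 1.74, 0.22 and 0.55 in Sgal, Sgal+aa, Sgal+ino and Sgal+aa+ino, against -0.11 to 0.51 in dextrose. It was 1.25 ± 0.30 higher in ethanol (adjusted p = 0.00491, limma), and 0.70 ± 0.30 in galactose did not pass (adjusted p = 0.0643). ATP1 was at 1.12 to 1.27 in ethanol, at 0.04, 1.00, -0.19 and -0.28 in the galactose media in that order, and at 0.06 to 0.84 in dextrose. The ethanol cultures of ATP1 stood above all others, and those of galactose overlapped dextrose. ATP1 passed in neither comparison with dextrose (0.69 ± 0.30, adjusted p = 0.0679, and -0.35 ± 0.30, adjusted p = 0.328), but was 1.04 ± 0.27 higher in ethanol than in galactose (adjusted p = 0.0328, limma). ATP15, the epsilon subunit, had the smallest difference of the complex in ethanol, at 0.13 ± 0.31 (adjusted p = 0.733, limma), with dextrose cultures already at 0.39 to 1.09. Of the rest, ATP3 and ATP4 passed in both comparisons, ATP7 in ethanol, ATP14 and ATP20 in galactose, and ATP5 in neither.

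Of the NADH dehydrogenases, NDI1, which takes electrons from NADH inside mitochondria, was at 2.03 to 2.59 in ethanol and 2.08 to 3.23 in galactose, against 0.36 to 0.62 in dextrose. The groups were well apart, by 1.90 ± 0.24 for ethanol (adjusted p = 0.000156) and 2.04 ± 0.24 for galactose (adjusted p = 7.55e-05, limma). NDE2, which faces outward, was at 0.84 to 1.39 in ethanol and 0.28 to 1.13 in galactose, against 0.06 to 0.58 in dextrose, and passed in ethanol (0.84 ± 0.23, adjusted p = 0.0093, limma) but not in galactose (0.30 ± 0.23, adjusted p = 0.272).

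NDE1, the other outward-facing enzyme, was at -0.66, -0.22, -0.46 and -0.33 in SEtOH, SEtOH+aa, SEtOH+ino and SEtOH+aa+ino, and at -0.90, 0.22, -1.26 and -1.13 in Sgal, Sgal+aa, Sgal+ino and Sgal+aa+ino. In dextrose it was at -0.39 to 0.27. All but Sgal+aa of the galactose cultures lay below the dextrose cultures, and NDE1 was lower in galactose (-0.72 ± 0.24, adjusted p = 0.0261, limma). The ethanol difference of -0.36 ± 0.24 did not pass (adjusted p = 0.219).

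Between ethanol and galactose directly, 4 subunits passed: ATP1 was higher in ethanol, and CYC1, COX5B and COX9 were lower in ethanol (COX9 -0.69 ± 0.17, adjusted p = 0.0269, limma). Of all genes 7.63% were higher and 7.11% lower, 14.7% in all, and the median difference was -0.02 over the subunits and -0.04 over all genes. The galactose cultures spread more than the ethanol cultures: the range over the 4 cultures had a median over subunits of 1.32 in galactose, against 0.32 in ethanol. Sgal+ino was the lowest galactose culture for 33 of 38 subunits and Sgal+aa the highest for 25. These ranges and ranks are not given here for all genes. Sgal+ino also had the smallest share of all genes at 2-fold or more above t = 0 at 240 min. That share was 13.8%, against 20.1% in Sgal, 22.5% in Sgal+aa+ino and 22.7% in Sgal+aa. Without Sgal+aa 15 subunits passed between ethanol and galactose, without SEtOH+aa 0 did, and after quantile normalization 0 did.

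Amino acids were compared within each carbon source. In galactose at 120 and 240 min the difference between no amino acids and all of them was below 0 for all 38 subunits, at -1.29 to -0.18 with a median of -0.64, and 0 passed (lowest adjusted p = 0.0529, limma), beside 0.0375% of all genes. The subunits share the same 4 galactose cultures, with Sgal+ino lowest for 33 of them and Sgal+aa highest for 25. Their common sign is therefore not 38 separate results, and the share of all genes below 0 is not given here. At an unadjusted p under 0.05 there were 17 subunits, beside 22.9% of all genes. Without Sgal+aa 10 subunits passed, among 698 genes in all. In ethanol the median difference was -0.15, with 0 subunits past the threshold and 2 at an unadjusted p under 0.05 (0.619% and 7.88% of all genes). For cultures without inositol against cultures with it, over all carbon sources, 0 subunits passed, with a median of 0.13 (0% of all genes passed, lowest adjusted p of a subunit 0.86, limma). There were 0 subunits at an unadjusted p under 0.05 (limma), beside 2.74% of all genes.

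The late order of carbon sources was not seen early. The additive fit takes the effect of amino acids as equal in all carbon sources, which did not hold early for COX5B and other subunits (below). Of the dextrose cultures fitted, SD and SD+ino lacked amino acids and SD+aa alone had them. Early differences between carbon sources therefore cannot be told apart from the loss of amino acids in dextrose. At 15 and 30 min, averaged, 0 subunits were higher in ethanol than in dextrose and 5 were lower, beside 10.5% of all genes higher and 14% lower (24.5% in all, median -0.19 over the subunits and -0.06 over all genes). Those 5 were QCR9, CYT1, COX4, COX5B and COX6. In galactose 0 were higher and 5 were lower, SDH2, QCR9, CYT1, COX4 and COX6, beside 12.6% of all genes higher and 17% lower (29.7% in all, median -0.06 over the subunits and -0.03 over all genes). At an unadjusted p under 0.05 (limma) 21.1% of the subunits differed in ethanol, beside 42.2% of all genes. In galactose these shares were 23.7% and 45.6%, so the subunits differed less often than all genes did. COX5B had early values of 0.52, 0.42, 0.16 and 0.25 in SEtOH, SEtOH+aa, SEtOH+ino and SEtOH+aa+ino, against 2.04, 1.91, 0.61, 2.07 and 1.96 in SD, SD+ino, SD+aa, SD+aa:LIVWHM+ino and SD+aa:ARNCQGKPSDEFTY+ino. Every dextrose culture lay above every ethanol culture, SD+aa least so, and the fitted difference was -1.11 ± 0.30 (adjusted p = 0.0354, limma).

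COX6, a subunit of the oxidase, had early values of -0.31 to -0.09 in ethanol and -0.39 to -0.09 in galactose, against 0.19 to 0.69 in dextrose, with differences of -0.61 ± 0.13 (adjusted p = 0.0207) and -0.62 ± 0.13 (adjusted p = 0.0154, limma). The early counts turn on the dextrose culture SD+aa: without it 18 subunits passed in ethanol and 16 in galactose, and without SD+ino 0 and 1. With SD+aa left out, the dextrose cultures fitted were SD and SD+ino, both without amino acids. The counts also depend on the time used, since 15 min alone gave 16 and 13. Shares of all genes under these settings are not given here. Of all genes that passed early, 43.0% were higher in ethanol with the values as deposited and 56.7% after centring of the arrays, and 42.6% and 54.9% in galactose.

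At 60 min 5 subunits were higher in ethanol than in dextrose and 1 was lower (12.8% and 18.8% of all genes, 31.6% in all, median 0.29 over the subunits and -0.07 over all genes). In galactose 12 were higher and 3 lower (16.2% and 22% of all genes, 38.2% in all, median 0.39 over the subunits and -0.05 over all genes). The count of higher subunits in ethanol was thus near the share of all genes. At an unadjusted p under 0.05 (limma) 31.6% of the subunits differed in ethanol, beside 42.9% of all genes. In galactose these shares were 55.3% and 48.1%. QCR8, QCR6, CYC7, COX7 and NDI1 were higher in both, with QCR8 at 1.57 ± 0.17 in ethanol (adjusted p = 0.000298) and 1.40 ± 0.17 in galactose (adjusted p = 0.000417, limma). NDE1 was lower in both, at -0.81 ± 0.16 in ethanol (adjusted p = 0.00602) and -0.77 ± 0.16 in galactose (adjusted p = 0.00586, limma). COX4 and ATP1 were lower in galactose, at -0.83 ± 0.22 and -0.62 ± 0.21 (adjusted p = 0.0168 and 0.0411, limma). Centring each array raised the median over all genes to 0.09 in ethanol and 0.08 in galactose, and 12 and 19 subunits then passed. The counts were 3 without SD+ino and 10 without Sgal+ino in ethanol, 6 without Sgal in galactose, and 17 and 23 in a fit with carbon source by amino acids. Of all genes that passed, 40.5% were higher in ethanol as deposited and 60.4% after centring, and 42.5% and 56.4% in galactose.

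Within cultures, 36 of 38 subunits rose between 15 and 240 min in ethanol and 1, CYC1, fell, beside 30.7% of all genes that rose and 36.5% that fell (67.2% in all), with a median of 1.56 over the subunits and -0.04 over all genes. NDE1 was the one subunit that passed in neither direction (-0.03 ± 0.23, adjusted p = 0.925, limma). Over the alternatives other than leaving out cultures, 9 calls of single subunits in ethanol no longer passed. Another 1 reversed, NDI1 after quantile normalization. In galactose 34 rose and 0 fell (16 and 0 after quantile normalization, which turned the sign of COR1 and NDI1), beside 32.2% and 38.2% of all genes (70.4% in all), with medians of 1.35 over the subunits and -0.07 over all genes. CYC1, ATP1, NDE1 and NDE2 did not pass there. In dextrose 0 rose and 11 fell (5 fell without SD+ino, and 4 rose and 5 fell after quantile normalization), beside 18.9% and 17.5% of all genes (36.4% in all), with medians of -0.22 and -0.03. The 11 were SDH1, SDH2, SDH3, SDH4, QCR2, QCR8, CYT1, RIP1, CYC7, COX5B and NDI1, and no complex V gene was among them. SDH1 fell in dextrose (-1.29 ± 0.24, adjusted p = 0.00354, limma) and rose by 2.68 in ethanol, and COX5B fell there too (-1.35 ± 0.18, adjusted p = 0.00179, limma).

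The early values in dextrose differed between the media. The median of complex II at 15 min was 1.43 in SD, 1.56 in SD+ino, 1.43 in SD+aa:LIVWHM+ino and 1.18 in SD+aa:ARNCQGKPSDEFTY+ino, and 0.66 in SD+aa, the sole dextrose culture with all amino acids. At 30 min SD+aa was at -0.08 and the other 4 at 0.85 to 1.50. SD+aa was thus the lowest dextrose culture at both times. Counted at 2-fold or more above t = 0 at 15 min, there were 0 subunits in SD+aa, and 7, 10, 13 and 7 in SD, SD+ino, SD+aa:LIVWHM+ino and SD+aa:ARNCQGKPSDEFTY+ino. Of all genes 1.93% stood as high in SD+aa, and 16.6%, 15.5%, 14.7% and 13.3% in the other 4 in that order, so all genes parted the same way.

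Between dextrose without amino acids (SD and SD+ino) and with all of them (SD+aa), at 15 and 30 min, 14 subunits were higher without amino acids and 2 were lower, beside 26.9% of all genes higher and 22.2% lower (49.1% in all). The median difference was 0.28 over the subunits, and 0.07 over all genes. After quantile normalization 3 were higher and 5 lower, with the sign of COR1 and NDI1 turned. By complex, 4 of 4 genes of complex II, 6 of 9 of complex III, 1 of 9 of complex IV and 1 of 11 of complex V were higher. COX5B was at 2.04 and 1.91 in SD and SD+ino, against 0.61 in SD+aa, a fitted difference of 1.49 ± 0.18 (adjusted p = 8.03e-05, limma). SDH1 was at 1.60 and 1.56, against 0.19 in SD+aa (1.44 ± 0.21, adjusted p = 0.000313, limma).

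CYC1 ran the other way, at -0.86 and -0.73 in SD and SD+ino, against 0.39 in SD+aa (-1.32 ± 0.30, adjusted p = 0.00494, limma). NDE1 did so too, at -0.59 and -0.61, against 0.38 in SD+aa (-1.04 ± 0.17, adjusted p = 0.000653, limma). In the cultures with part of the amino acids, COX5B was at 2.07 (LIVWHM) and 1.96 (ARNCQGKPSDEFTY), SDH1 at 1.40 and 0.95, and CYC1 at 0.48 and -0.32. COX5B thus stood with SD and SD+ino in both, and CYC1 with SD+aa in the LIVWHM culture. NDI1 was at the lower limit of the file, -6.64, at 15 min in the LIVWHM culture, which is not in the fits. SD+aa is 1 culture, assumed to vary like the others, and nothing in these comparisons tells that culture from the amino acids.

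**Figure D3:**
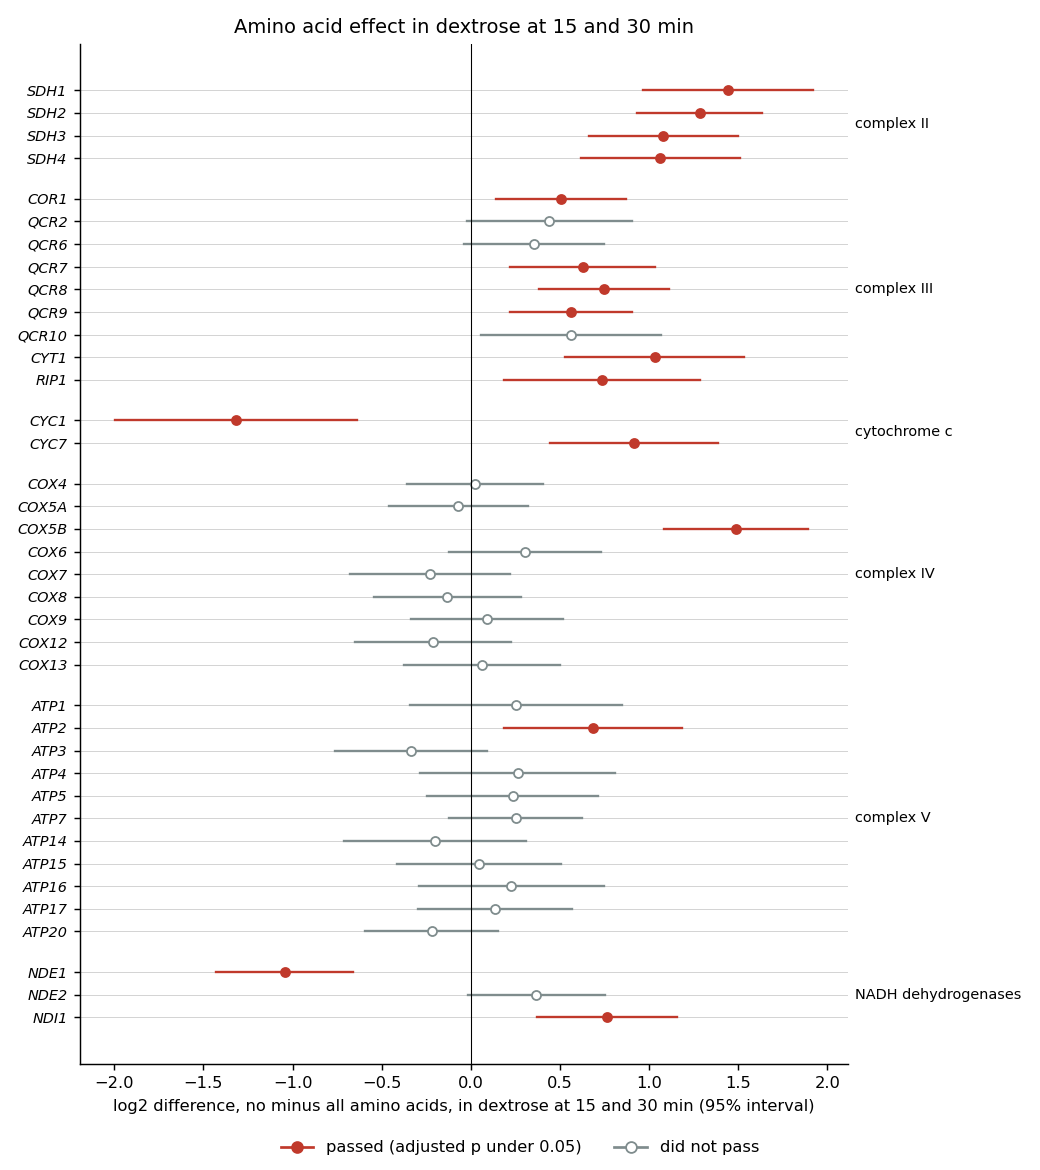
Log2 difference between dextrose without amino acids (SD, SD+ino) and with all amino acids (SD+aa) at 15 and 30 min for each subunit, with its 95% interval from limma. Filled points passed the adjusted threshold of 0.05, 14 above 0 and 2, CYC1 and NDE1, below it.

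The effect of amino acids itself differed between carbon sources at 15 and 30 min, for subunits no more often than for all genes. In dextrose minus ethanol, 12 subunits had a higher difference and 2 a lower one, beside 21.4% and 18.2% of all genes (39.6% in all), and in dextrose minus galactose 12 and 1, beside 21.1% and 19.5% (40.6% in all). The medians over the subunits were 0.29 and 0.33, and over all genes 0.08 and 0.06. COX5B differed by 1.49 ± 0.23 (adjusted p = 0.000613) from ethanol and 1.58 ± 0.23 (adjusted p = 0.000397, limma) from galactose, and NDE1 by -1.28 ± 0.22 (adjusted p = 0.00117) and -1.16 ± 0.22 (adjusted p = 0.00209, limma). Both comparisons share the 3 dextrose cultures, of which SD+aa alone had all amino acids. After quantile normalization 3 subunits passed in each.

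The paralogs were set against each other as the difference of their log2 ratios within a culture, averaged over the 5 times, with 9 exact permutation tests over cultures adjusted together. Whether the probes tell the copies of a pair apart was not tested. CYC1 minus CYC7 was -1.70, -1.87, -1.79 and -1.77 in SEtOH, SEtOH+aa, SEtOH+ino and SEtOH+aa+ino, against -0.97, -0.98, 0.14, -0.28 and -0.55 in SD, SD+ino, SD+aa, SD+aa:LIVWHM+ino and SD+aa:ARNCQGKPSDEFTY+ino. The groups did not overlap, and the difference of -1.25 had the smallest p this design allows (two-sided exact permutation test, p = 0.00794, adjusted p = 0.0476). In galactose it was -1.75, -1.87, -0.78 and -0.48 in Sgal, Sgal+aa, Sgal+ino and Sgal+aa+ino, overlapping dextrose (-0.69, exact permutation p = 0.143, adjusted p = 0.257).

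NDE1 minus NDE2 averaged -0.93 ± 0.10 in ethanol and -0.98 ± 0.11 in galactose, against -0.42 ± 0.41 in dextrose (SD, n = 4, 4 and 5). Neither group overlapped dextrose, with differences of -0.51 and -0.55 (exact permutation p = 0.0159, adjusted p = 0.0476 for each). The gap was narrow, with SEtOH+ino at -0.842 and Sgal+aa at -0.840 next to SD+ino at -0.822. Of the dextrose cultures, SD+aa was the highest at 0.21. Leaving out any 1 culture ended these 3 calls (adjusted p of 0.0514 to 0.201), and fewer cultures also raise the smallest p the test can give. The differences were then -1.37 to -1.09 for the cytochrome c pair in ethanol, and -0.61 to -0.35 in ethanol and -0.65 to -0.40 in galactose for NDE1 minus NDE2.

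COX5A minus COX5B averaged -0.58 ± 0.20 in ethanol and -1.09 ± 0.08 in galactose, against -0.86 ± 0.56 in dextrose. SD+aa stood apart in dextrose at 0.07, with the other 4 at -1.47 to -0.95. Neither comparison with dextrose passed (exact permutation adjusted p = 0.5 for ethanol and 0.6 for galactose). Ethanol and galactose did not overlap, but 4 against 4 cultures cannot go below p = 0.0286, and with 9 tests the adjusted exact permutation p was 0.0643. The average over time hides opposite courses: at 120 and 240 min alone the difference between ethanol and dextrose was -0.74, and between galactose and dextrose -1.32 (exact permutation adjusted p = 0.0476 and 0.0429), with COX5B the higher of the pair against t = 0.

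**Figure D4:**
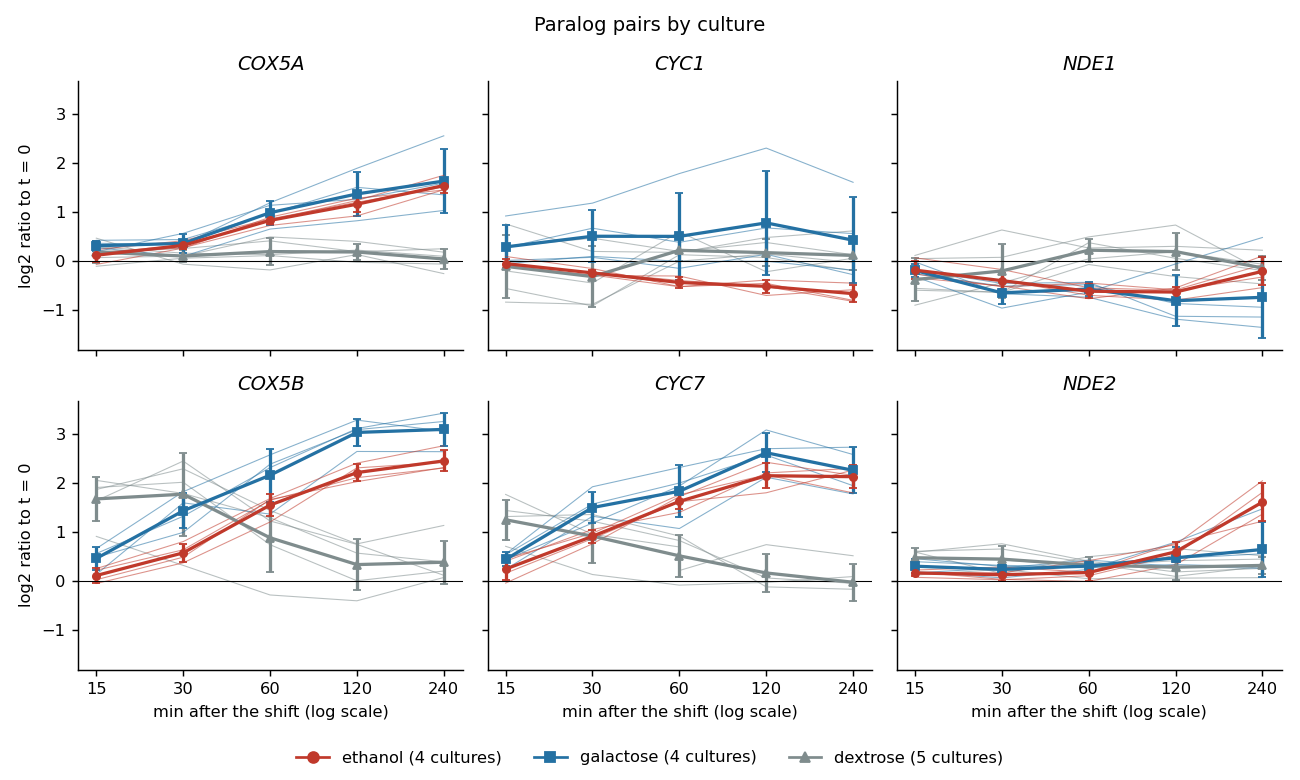
Log2 ratio to t = 0 of COX5A, COX5B, CYC1, CYC7, NDE1 and NDE2 against minutes after the shift (log scale), with thin lines for single cultures and thick lines for the mean ± SD by carbon source. COX5B and CYC7 cross, with dextrose above ethanol at 15 min and the ethanol and galactose cultures above dextrose at 120 and 240 min, while CYC1 stays below 0 in ethanol late.

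As a description over the combinations of culture and time, the genes outside the list most like COX5B were UGA1, PDE1, RNY1, YAP1801 and YMR090W (Pearson r of 0.91 to 0.93, 65 points). Those most like CYC7 were GIS1, BCY1, ATG20, LAM5 and VID30 (0.92 to 0.94, 63 points), and those most like COX5A were ESL2, MSS4, MRPS12, UBC7 and SEF1 (0.89 to 0.91, 65 points). For CYC1 they were YAP7, YOL029C, MMT1, CYT2 and SPT15 (0.79 to 0.85, 65 points). Only genes with a value at every point used were ranked, 3888 for COX5B, COX5A and CYC1 and 4217 for CYC7, out of 5538 genes with a probe. All points share arrays and the t = 0 cells. Against the median of the other subunits, QCR10 and COX5A had the highest correlations (both 0.93), and ATP1 (0.33), CYC1 (-0.09) and NDE1 (-0.28) the lowest.

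Among the regulators, HAP4, the subunit that activates and is itself repressed by dextrose, was high from the first time on. At 15 min it was at 1.04, 1.66, 1.19 and 1.85 in SEtOH, SEtOH+aa, SEtOH+ino and SEtOH+aa+ino, at 1.03 to 2.03 in galactose and at -0.80 to 0.90 in dextrose. Early it was 2.18 higher in ethanol (adjusted p = 0.00238) and 2.29 higher in galactose (adjusted p = 0.00153), and at 120 and 240 min 2.13 (adjusted p = 5.71e-06) and 2.37 (adjusted p = 1.9e-06, limma). Of its DNA-binding partners HAP2 and HAP3 passed in neither late comparison, and HAP5 passed in galactose (0.45, adjusted p = 0.0486) but not in ethanol (0.01, adjusted p = 0.969, limma), with late levels of 0.37 to 0.90 in galactose that overlapped the -0.25 to 0.58 of dextrose. HAP1, a haem-dependent activator of CYC1 and other genes, had late levels of 0.44 to 0.68 in ethanol and 0.31 to 0.69 in galactose, against 0.30 to 0.81 in dextrose. Its differences from dextrose, 0.10 and -0.01, did not pass. These are RNA levels, and whether HAP1 was active in this strain was not tested.

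ROX1, the repressor of hypoxic genes such as COX5B, was at 2.33, 2.12, 2.38 and 3.27 in Sgal, Sgal+aa, Sgal+ino and Sgal+aa+ino, and at 0.32 to 1.26 in ethanol, against 0.05 to 0.59 in dextrose, late. It was 2.04 higher in galactose than in dextrose (adjusted p = 0.000131) and lower in ethanol than in galactose (-1.73, adjusted p = 0.00464, limma), and 0.31 in ethanol against dextrose did not pass. COX5B, its named target, was highest in the galactose cultures too. ANB1, the hypoxic form of the translation factor eIF5A and another ROX1 target, was lower in both (-1.30 in ethanol, adjusted p = 0.000334, and -1.14 in galactose, adjusted p = 0.000556, limma). Of the 10 hypoxic genes tested, COX5B and CYC7 included, 3 were higher and 2 lower in ethanol, and 2 and 2 in galactose. AAC3 was the other lower one in both. Of all genes 26.4% were higher and 34.8% lower in ethanol, and 27.6% and 36.3% in galactose. The counts of hypoxic genes thus lay near or below the shares of all genes.

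**Figure D5:**
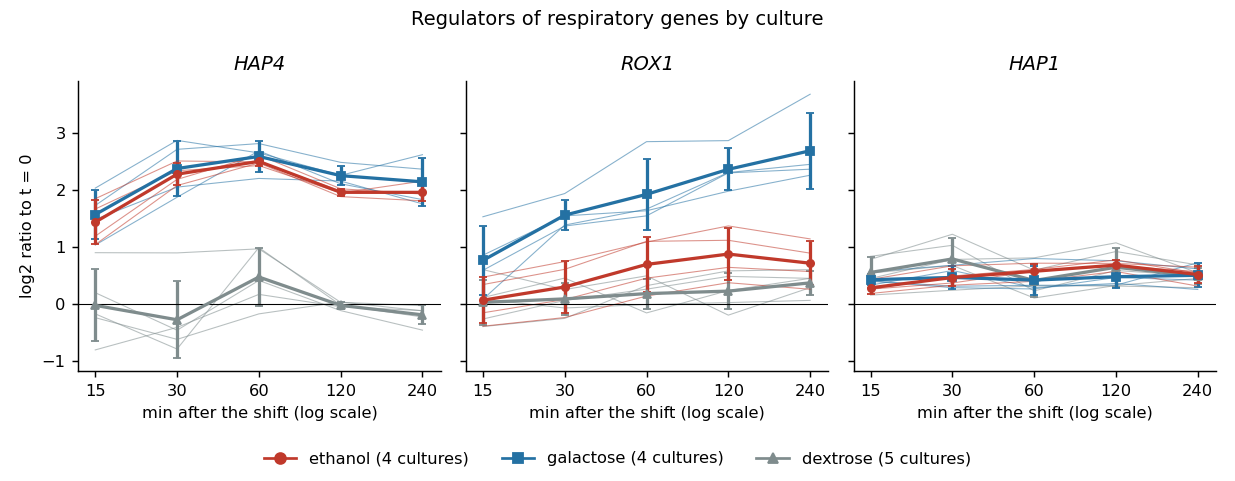
Log2 ratio to t = 0 of the regulators HAP4, ROX1 and HAP1 against minutes after the shift (log scale), thin lines for cultures and thick lines for the mean ± SD by carbon source. HAP4 is above 1 in all ethanol and galactose cultures from 15 min, and ROX1 is highest in galactose at 120 and 240 min.

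Of the other genes of respiration, those for assembly went both ways, and their counts stand beside 26.4% of all genes higher and 34.8% lower in ethanol, and 27.6% and 36.3% in galactose. For complex IV assembly 8 of 16 genes were higher and 1 lower in ethanol, and 7 and 1 in galactose. SHY1 was 0.95 higher in ethanol and 1.72 in galactose, and COX15, for haem A synthesis, 1.14 and 1.37, while COX10, which acts in the step before COX15, was lower (-0.68 and -1.07). For complex III 3 of 6 were higher in ethanol and 4 of 6 in galactose, with CBP4 at 1.52 and 1.64. CYT2, which attaches haem to cytochrome c1, was 1.43 higher in galactose, with cultures between 0.59 and 3.08, and -0.23 in ethanol did not pass.

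For complex V assembly 2 of 6 were higher and 1 lower in ethanol, and 2 and 2 in galactose. INH1, an inhibitor of the synthase, was higher by 1.36 in ethanol and 1.26 in galactose. STF2, known as a factor that stabilises the inhibited enzyme, was at 3.51 to 4.81 in the ethanol cultures and 4.03 to 5.92 in the galactose cultures, against -0.06 to 0.75 in dextrose, and was higher by 3.67 and 4.21. STF2 exceeded every subunit in its difference from dextrose (adjusted p = 0.000126 and 4.17e-05, limma). All genes named as higher or lower in these paragraphs passed at an adjusted p of 0.05 in limma.

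Cofactor genes also went both ways, beside the same shares of all genes. For ubiquinone synthesis 3 of 10 were higher and 2 lower in ethanol, and 4 and 2 in galactose. COQ4 was higher by 1.59 and 1.41, and COQ8 lower (-1.06 and -0.71). For haem 2 of 8 were higher and 2 lower in each, and HEM1, the first step of haem synthesis, was lower (-1.51 and -1.55). Of other electron donors and carriers 3 of 7 were higher and 0 lower in ethanol, and 2 and 1 in galactose. CYB2, the lactate dehydrogenase that feeds cytochrome c, was higher by 2.54 and 1.34, and GUT2, the glycerol 3-phosphate dehydrogenase that feeds ubiquinone, by 2.56 in ethanol, with 1.04 in galactose not passing (adjusted p = 0.0717, limma).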

How the data were processed

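The values deposited by the authors, read as log10 ratios, came from 73 two-colour arrays of 6256 probes, and their log base, direction and normalization are not given in the sources used here. They reach exactly 2 on both sides of 0, a limit of 100-fold if the base is 10, and array medians lay between -0.17 and 0.06 on the log2 scale. They were multiplied by 3.32 (log2 of 10) and not normalized further. Of the probes 5568 had 1 gene symbol, 0 several and 688 none (left out); 5563 were matched to R64 names, and probes of a gene were averaged to 5538 genes. Signal intensities were not used here, so the number of arrays and cultures limits the precision.

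Repeat arrays of a culture and time were averaged. The culture was the replicate, and since each medium was 1 culture, p-values measure the spread between cultures of different media. limma 3.58.1 in R 4.3.3 (lmFit, eBayes) was fitted to all genes with a value at 1 or more of the times used in every culture, over 11 cultures, with carbon source, amino acids and inositol as terms. P-values were two-sided and adjusted by Benjamini and Hochberg at 0.05, and fits were tested on simulated data. Amino acid effects within a carbon source came from a fit with an interaction. Paralog pairs were compared by exact permutation of cultures. Other tools were Python 3.11.15, numpy 2.4.6, pandas 2.3.3 and matplotlib 3.10.9. Members and lists were chosen with earlier results of these data known.

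Named in full were the paralogs, NDI1, in each complex the 2 largest and the 1 smallest difference in each late comparison, HAP4, HAP1, ROX1, and up to 3 genes of each other list. For COX5B and CYC7 the 5 most correlated genes were named, and those for COX5A and CYC1 were added after seeing the data. The comparisons at 60 min, over time in dextrose and of amino acid effects between carbon sources were added after seeing the data, as was leaving out values at the limit. The alternatives were centring, quantile normalization, genes with complete values, only the first of repeated arrays, a trended and robust eBayes, leaving out each culture, all 13 cultures, the interaction fit and single times. The titles were followed where labels of the SEtOH+aa repeats disagree. ATP18 was not analysed here.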

Additional observations from a re-analysis of the deposited data

Results flagged for a closer look

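At 120 and 240 min, 4 of 114 groups of cultures (38 subunits in 3 carbon sources, 3.5%) held a culture that stood apart from the rest by Dixon's criterion, which chance alone gives in about 1 in 20. QCR2 was at 1.08 in Sgal+ino, with the other galactose cultures at 1.89 to 2.01. COX5B was at 2.64 in Sgal+ino, with the others at 3.16 to 3.26. CYC1 was at -0.41 in SEtOH+aa+ino, with the other ethanol cultures at -0.67 to -0.62. ATP7 was at 1.02 in SD, with the other dextrose cultures at 0.28 to 0.49.

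The effect of leaving out amino acids at 15 and 30 min differed between dextrose and ethanol for 14 subunits and between dextrose and galactose for 13, by the interaction term in limma. That is no more than among all genes, of which 39.6% and 40.6% passed. COX5B, SDH1 and SDH2 had the largest positive differences of effect in both, at 1.49, 1.62 and 1.23 against ethanol, and NDE1 and CYC1 the largest negative ones, at -1.28 and -1.38. Against galactose the difference of CYC1, -1.02, did not pass (adjusted p = 0.0602, limma). In dextrose all of these rest on SD+aa, the 1 culture with all amino acids.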

How the results depend on the processing

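No paired analysis was possible because every culture carries the replicate number 1, so no numbers pair cultures. Matched media enter through the amino acid and inositol terms, and times were compared within a culture. Of the values of single subunits under alternatives, 10712 kept their direction and side of the threshold, 269 passed where they had not, 373 no longer passed and 18 reversed. Quantile normalization left 14 subunits past the threshold late for ethanol against dextrose (29 as deposited), 17 for galactose (26), 0 for ethanol against galactose (4), 16 over time in galactose (34), 8 for amino acids in dextrose (16), and 3 and 3 for the differences of that effect from ethanol (14) and galactose (13). It gives every array the same spread by construction, and reversed ATP15 (-0.99), ATP7 (-0.17) and COR1 (-0.038) late in ethanol; ATP15 (-0.88), COR1 (-0.41), ATP14 (-0.28) and ATP20 (-0.042) late in galactose; NDI1 over time in ethanol (-0.28) and galactose (-0.16), and COR1 in galactose (-0.25). For amino acids it reversed COR1 (-0.30) and NDI1 (-0.45) in dextrose, COR1 (-0.18), NDI1 (-0.44) and SDH4 (-0.075) in dextrose minus ethanol, and COR1 (-0.34) and NDI1 (-0.33) in dextrose minus galactose. A fit with carbon source by amino acids gave 8 for ethanol against galactose, 8 and 9 early and 17 and 23 at 60 min for ethanol and galactose. Centring gave 3 early and 12 at 60 min for ethanol. At 15 min alone there were 16 (ethanol), 13 (galactose) and 9 (amino acids, dextrose minus ethanol). Amino acids in galactose gave 2 for genes with complete values and 3 with values at the limit left out. Leaving out each culture gave late counts of 22 to 33 for ethanol, 20 to 30 for galactose and 0 to 15 between them, early counts of 0 to 18 and 1 to 16, counts at 60 min of 3 to 10 and 6 to 19, and counts over time of 37 (ethanol), 33 to 35 (galactose) and 5 to 14 (dextrose). For amino acids it gave 16 to 19 in dextrose, 0 in ethanol, 0 to 10 in galactose, 10 to 16 for dextrose minus ethanol and 8 to 18 for dextrose minus galactose, and for inositol 0. SD+aa could not be left out of the amino acid effect in dextrose, and without it NDE1 reversed early in ethanol (0.40, and -0.26 at the lowest without another culture). At 120 and 240 min alone, COX5A minus COX5B was -0.74 for ethanol against dextrose and -1.32 for galactose, and CYC1 minus CYC7 -1.99 for galactose. In the 11 cultures, CYC1 minus CYC7 was -1.18 in ethanol and NDE1 minus NDE2 -0.52 in ethanol and -0.56 in galactose, each no longer past the threshold (exact permutation adjusted p = 0.0514). Leaving out each culture, these were -1.37 to -1.09, -0.61 to -0.35 and -0.65 to -0.40. Except where stated, the cause was not tested.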
